A study of Mus musculus with 24 samples.

Results

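Extraocular muscle of control mice at 112 days was compared with the same muscle at 14 days. The comparison used 6 of the series' 24 Affymetrix arrays, the 3 titled as control muscle of 112 days and the 3 titled as control muscle of 14 days, and all 12422 probe sets that are not the manufacturer's controls. A probe set is a group of short probes against one transcript. The series holds 8 groups of 3 arrays each, control and mdx mice at 14, 28, 56 and 112 days, all made from total RNA of extraocular muscle. The series title calls the controls wild type. The mdx mice, used here for the last comparison and in the estimate of the spread, carry a mutation of the dystrophin gene. The labels give no strain, sex or treatment, do not say whether tissue was pooled, and do not say that each array came from an animal of its own. The p-values therefore measure only how far these samples spread, and part of that may be technical; also, the 3 arrays in each group limit the precision of every value.

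Extraocular muscles move the eye and differ from limb muscle in many ways. As background, their fibres keep embryonic and neonatal forms of myosin and fetal acetylcholine receptor into adult life, they are rich in mitochondria and vessels, and they contract faster than other skeletal muscle. At 14 days mouse pups are opening their eyes and the muscle still grows quickly, laying down matrix, membrane and nerve contacts. By 112 days the mouse is a young adult and growth of the muscle has largely ended.

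Skeletal muscle markers were bright on all 6 arrays. The summed level of 12 skeletal muscle markers lay between 52709 and 116417, and all 12 were above the filter on dim probe sets. One array stood apart, control 112-day replicate 1. Its mean correlation with the other 23 arrays was 0.908, against 0.942 and 0.945 for the other 112-day control arrays and 0.926 to 0.935 for those of 14 days. Its quality weight in limma was 0.226, where the other 5 arrays had weights of 0.727 to 1.90. Embryonic myosin, Myh3, was measured there at an intensity of 41.1 and at 4744 to 5589.9 on the other 5. The labels do not say whether its tissue was dissected as that of the other 112-day arrays, and this was not tested. Results are therefore given with that array and without it.

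In all, 813 of 7453 tested probe sets (10.9%) were called at an adjusted p under 0.05, 387 higher (5.19%) and 426 lower (5.72%) at 112 days. They include 715 genes with a single symbol. The change was more than 2-fold in 167 of the risers and 244 of the fallers, and more than 4-fold in 14 and 46. Without the array that stood apart 291 were called higher (3.90%) and 221 lower (2.97%), 512 in all, and 414 of these were among the 813. Leaving out 14-day replicate 1 gave 465 calls (218 higher and 247 lower), and leaving out 14-day replicate 3 gave 533 (267 and 266). Without 14-day replicate 2, 252 were called lower. The arrays of both ages did not overlap in 2302 probe sets (30.9%), among them 794 of the 813. The median log2 change of all tested probe sets was -0.05, the value against which the medians of gene lists are set. Each gene counts once in a list, through its brightest tested probe set. The filter on dim probe sets used the mean of all arrays. A list member that passed it only through the age where it was bright had to differ. List counts and medians therefore describe the tested members alone. The rule for naming genes covers 177 called probe sets, not all of them described below. Of these, 55 lost their call without 112-day replicate 1 and 18 to 47 without 1 of the other 5 arrays, and the losses are given beside the genes described.

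**Figure D1:**
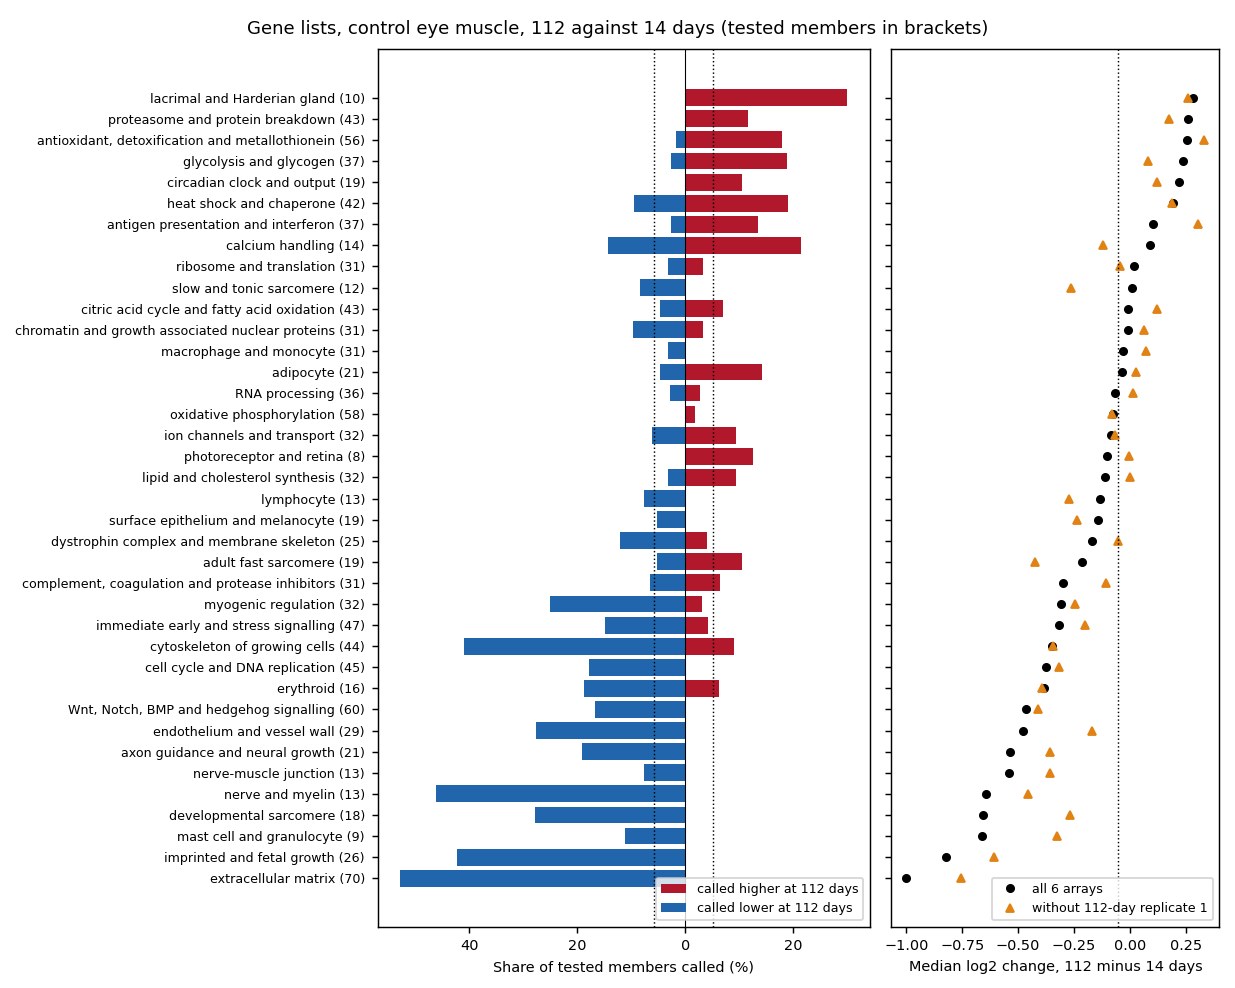
Called members and median change of 38 gene lists, 112 against 14 days in control muscle. The left panel gives the share of tested members called higher (red, to the right) or lower (blue, to the left), with dotted lines at 5.19% and 5.72%, the shares over all probe sets. The right panel gives each list's median log2 change with all 6 arrays (black dots) and without 112-day replicate 1 (orange triangles), with a dotted line at the median of all probe sets, -0.05. The matrix and imprinted lists have the lowest medians, -1.0 and -0.82, and the gland, protein breakdown and detoxification lists the highest, 0.28, 0.26 and 0.25.

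Some genes that present antigen to T cells rose, H2-Aa by one of the 20 largest rises. Class II molecules carry peptides on the surface of antigen-presenting cells, class I molecules do so on nearly all cells, and Cd74 is the invariant chain that guides class II molecules to the compartment where they are loaded. For H2-Aa, the alpha chain of the class II molecule I-A, the intensity was 77.2, 55.2 and 54.7 at 14 days and 421, 955 and 763 at 112 days. All 3 older arrays lay above all 3 younger ones, and because an offset of 16 is added before the log2 is taken, the fold of a gene this dim at 14 days is understated. H2-Aa rose by 3.15 ± 0.55 (SE, adjusted p = 0.00075) on the log2 scale, 8.90-fold, and by 3.48 ± 0.61 (adjusted p = 0.00102) without 112-day replicate 1. The mean was already higher in the groups between, at 318 ± 121 at 28 days and 326 ± 240.4 at 56 days (SD, n = 3). At 56 days replicates 1 and 3 had 558 and 341, but replicate 2 had 77.7, close to the 14-day level. That 56-day array had the lowest mean correlation with the other arrays of the series, 0.865.

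Promoter sequences are shown for the 4 class I and class II genes that rose and had a promoter in the sequence table used. They were picked because their control elements are well known. Whether the genes moved together was not tested. Each run is the last 200 bases before the start of transcription, 5′ to 3′ on the gene's own strand, from RefSeq on GRCm38.p6, with matches to the searched motifs in capitals.
H2-Aa, chr17:34287824-34288023, minus strand: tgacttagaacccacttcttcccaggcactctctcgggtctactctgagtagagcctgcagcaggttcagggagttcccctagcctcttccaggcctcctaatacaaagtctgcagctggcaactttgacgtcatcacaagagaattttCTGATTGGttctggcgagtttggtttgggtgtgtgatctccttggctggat
H2-Eb1, chr17:34305667-34305866, plus strand: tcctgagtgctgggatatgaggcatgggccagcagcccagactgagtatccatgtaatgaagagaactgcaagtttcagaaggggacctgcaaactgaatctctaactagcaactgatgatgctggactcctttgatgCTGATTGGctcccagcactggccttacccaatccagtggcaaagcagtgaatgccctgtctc
H2-K1, chr17:34000348-34000547, minus strand: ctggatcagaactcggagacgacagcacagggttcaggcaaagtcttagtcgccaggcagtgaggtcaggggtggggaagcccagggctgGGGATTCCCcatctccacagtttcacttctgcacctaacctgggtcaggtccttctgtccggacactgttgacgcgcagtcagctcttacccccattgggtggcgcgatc
H2-D1, chr17:35262894-35263093, plus strand: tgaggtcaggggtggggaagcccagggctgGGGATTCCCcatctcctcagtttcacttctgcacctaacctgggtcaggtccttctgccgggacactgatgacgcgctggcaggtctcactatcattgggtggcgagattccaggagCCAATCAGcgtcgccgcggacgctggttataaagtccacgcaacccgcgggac
The capitals in H2-Aa and H2-Eb1 mark the Y box CTGATTGG, an element of class II promoters that binds the factor NF-Y. It lies 51 to 44 bases before the start in H2-Aa and 62 to 55 bases before it in H2-Eb1. In H2-D1 the same box lies on the other strand, as CCAATCAG, 53 to 46 bases before the start. The capitals GGGATTCCC in H2-K1 (110 to 102 bases before the start) and H2-D1 (170 to 162 bases before it) mark the letters of the NF-kB site known from class I promoters. On either strand of the 250 bases before the start, the Y box was found in 3.83% and GGGATTCCC in 0.301% of 32851 RefSeq promoters. The 2 other motifs searched, GAAANNGAA (7.13% of promoters) and CCTAGNAAC (1.29%), had no match in these 4. Only these exact letters were searched, on both strands. Other spellings of the same elements would be missed, so the lack of a match does not show that an element is absent. The motifs do not overlap one another, and a match describes letters only. H2-K1 has a second start site in the table, for which the same NF-kB letters lie 124 to 116 bases upstream.

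Cd74 and H2-Eb1 rose less than H2-Aa. Further class II genes of the list, such as H2-Ab1 and H2-DMa, are not described here. Cd74 was measured at 634, 701 and 955 at 14 days and 898, 1955 and 2324 at 112 days. The lowest older array, replicate 1, lay inside the 14-day range, and the other 2 were above it. Its log2 change was 1.07 ± 0.28 (SE, adjusted p = 0.0173), and 1.48 ± 0.25 (adjusted p = 0.000728) without that array. Cd74 lost its call without 14-day replicates 1 or 2 or 112-day replicates 2 or 3 (adjusted p = 0.0587 to 0.0868). H2-Eb1, the beta chain of I-E, had 863, 474 and 493 at 14 days and 723, 1573 and 1702 at 112 days, with the same array inside the 14-day range. Its change was 1.07 ± 0.29 (SE, adjusted p = 0.0223) and, without the array, 1.45 ± 0.27 (adjusted p = 0.00197). H2-Eb1 lost its call without 14-day replicates 2 or 3 or 112-day replicates 2 or 3 (adjusted p = 0.0849 to 0.0956).

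Class I genes rose by log2 changes close to those of Cd74 and H2-Eb1. H2-K1, a heavy chain, had 1704, 1662 and 1901 at 14 days and 3019.9, 3767 and 4379 at 112 days, with no overlap, and a log2 change of 1.06 ± 0.17 (SE, adjusted p = 0.000301). The heavy chain gene H2-D1 had 1091, 1059 and 1001 at 14 days and 1785, 2648 and 2491 at 112 days, again without overlap, and a change of 1.10 ± 0.21 (SE, adjusted p = 0.00165). Names of these probe sets end in f, the manufacturer's mark for probes shared by a family, so class I genes cannot be told apart by them. Of the other tested probe sets of H2-K1, one rose by 2.40 (adjusted p = 0.000628), and one that carries no such mark was not called, at -0.43 (adjusted p = 0.508). Those of H2-D1 were at 1.04 (adjusted p = 0.0452), called, and 0.59 (adjusted p = 0.0755), not called.

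Of 37 tested genes of antigen presentation and interferon response, 5 were called higher and 1 lower, with a median of 0.10 (7, 1 and 0.31 without 112-day replicate 1). The one that fell was Ifi30, a thiol reductase of antigen-processing compartments. Its levels were 174, 194 and 147 at 14 days and 49.7, 45.1 and 29.1 at 112 days, and its change -1.72 ± 0.37 (SE, adjusted p = 0.0042). Of 31 tested macrophage and monocyte genes 0 were called higher and 1 lower (2 and 0 without that array). For lymphocyte genes the count was 0 higher and 1 lower of 13, the 1 being Thy1. The summed level of 46 macrophage markers was 22162 to 23442 at 14 days and 16833 to 24742 at 112 days, where replicate 1 was lowest. In RNA from muscle tissue, fewer cells of a type and less RNA per cell cannot be told apart.

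By number of genes called higher, the list of enzymes that detoxify small molecules came first, but it is among the larger lists. A larger share was called higher in the lists of gland (3 of 10), calcium handling (3 of 14) and chaperones (8 of 42). Over all tested probe sets the share called higher was 5.19%. Of 56 tested genes of antioxidant defence and detoxification, 10 were called higher and 1 lower, with a median of 0.25 (10, 1 and 0.33 without 112-day replicate 1). Cyp2e1, a cytochrome P450 that oxidises ethanol and acetone, was measured at 407, 482 and 444 at 14 days and 1360.5, 2279.6 and 1977 at 112 days. Each older array was well above each younger one, and the log2 change was 2.01 ± 0.24 (SE, adjusted p = 9.27e-06). Mgst1, a glutathione transferase of membranes, had 288, 413 and 482 at 14 days and 1702, 1846 and 2121 at 112 days and a change of 2.24 ± 0.19 (SE, adjusted p = 9.32e-08). Both changes were larger without replicate 1, at 2.22 and 2.31.

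The groups in between give the course of these rises. Means for Cyp2e1 were 1086 ± 188 at 28 days and 1739.5 ± 466 at 56 days (SD, n = 3), and those for Mgst1 824 ± 34.2 at 28 days and 2111 ± 226 at 56 days (SD, n = 3). Inmt, which methylates indole amines, had 264, 249 and 283 at 14 days and 441, 1444 and 1329 at 112 days. Its older arrays were all above the younger ones, replicate 1 least so, and its change was 1.78 ± 0.34 (SE, adjusted p = 0.00188), or 2.32 ± 0.29 (adjusted p = 3.16e-05) without that array. Ces1d, a carboxylesterase that cleaves esters and drugs, was near background at 14 days and had 18.1, 63.1 and 10.8 at 14 days and 669, 347 and 310.2 at 112 days. The change of this probe set was 3.38 ± 0.59 (SE, adjusted p = 0.000813), and another probe set of the gene was below the filter. The name of the called set ends in f, so related carboxylesterases cannot be told apart by it.

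Enzymes that oxidise aldehydes were among the rising genes. Aldh1a1, which makes retinoic acid from retinal, was measured at 1338, 1995 and 2025 at 14 days and 3724, 4365 and 4711 at 112 days and changed by 1.27 ± 0.24 (SE, adjusted p = 0.00166). Aldh2, the mitochondrial enzyme that clears acetaldehyde, had 1271, 954 and 814 at 14 days and 1219, 2463 and 2106 at 112 days. The groups overlapped through replicate 1, and the change was 0.88 ± 0.23 (SE, adjusted p = 0.0138). Aldh2 lost its call without 14-day replicate 3 or 112-day replicate 2 (adjusted p = 0.074 to 0.0762). Aox1, aldehyde oxidase, had 330.5, 279 and 399 at 14 days and 449.8, 967 and 968 at 112 days and a change of 1.14 ± 0.27 (SE, adjusted p = 0.00762). Other probe sets of Aldh1a1 and Aldh2 were not called, at 0.29 (adjusted p = 0.639) for the first and 0.50 (adjusted p = 0.0775) and -0.10 (adjusted p = 0.894) for the second.

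Selenbp1, a selenium-binding methanethiol oxidase, rose with a wide error. Its intensity was 182, 167 and 171 at 14 days and 174, 951 and 913 at 112 days. Replicate 1 at 112 days lay at the 14-day level while the other 2 were several times higher. The log2 change was 1.55 ± 0.40 (SE, adjusted p = 0.0142), and 2.32 ± 0.24 (adjusted p = 5.43e-06) without it. Selenbp1 lost its call without 112-day replicates 2 or 3 (adjusted p = 0.0743 to 0.0796). The member that fell was Prdx4, a peroxiredoxin of the secretory pathway, with 678, 603 and 610.5 at 14 days and 190.2, 269.5 and 322 at 112 days and a change of -1.25 ± 0.22 (SE, adjusted p = 0.000911).

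**Figure D2:**
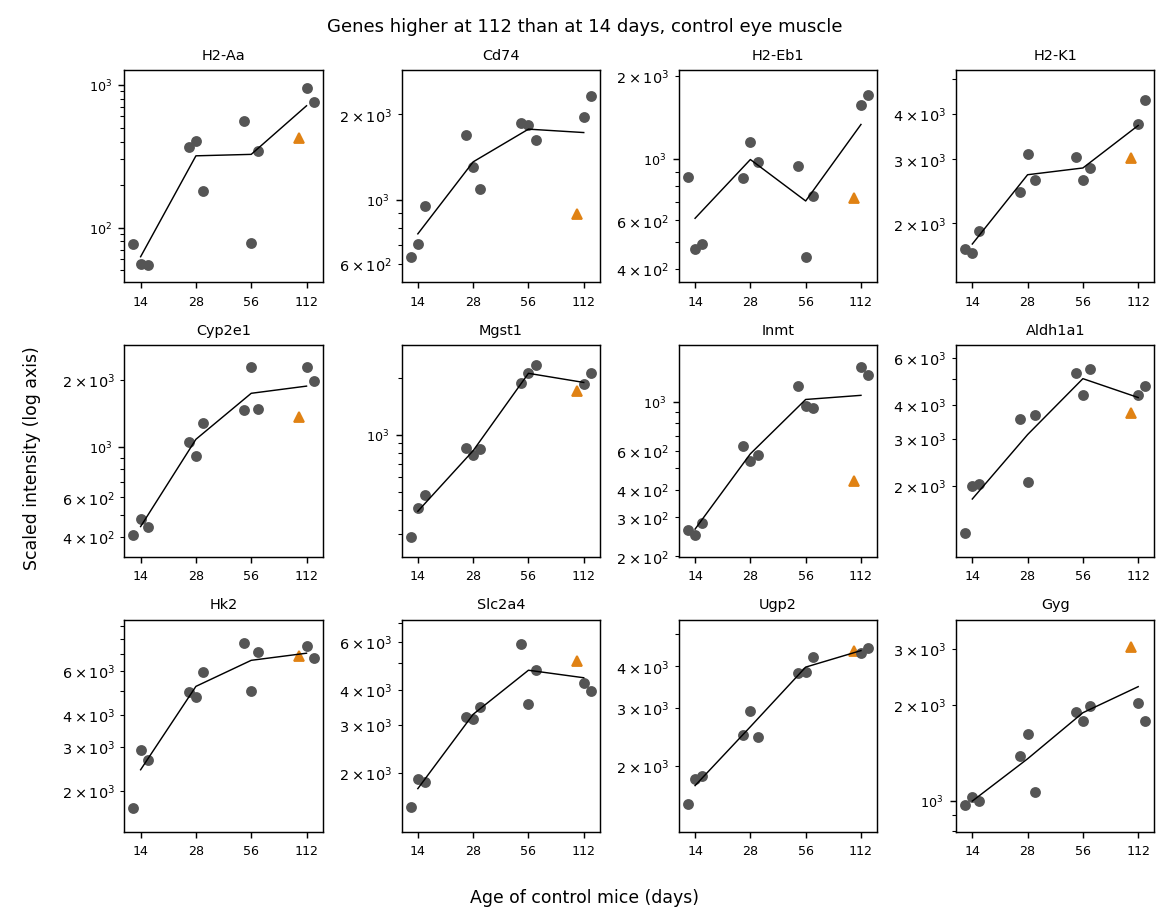
Scaled intensity of 12 rising genes on each control array at 14, 28, 56 and 112 days, on log axes that differ between panels. Points are arrays, the line joins the group means, and the orange triangle is 112-day replicate 1. In Cd74, H2-Eb1 and Inmt that array lies well below the other 112-day arrays, and in Gyg above them.

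Genes of glucose uptake and glycogen metabolism were among the risers. Of 37 tested genes of glycolysis and glycogen, 7 were called higher and 1 lower, with a median of 0.24. The counts were the same without 112-day replicate 1 (median 0.08), but not the members. Pgm2, called lower with all arrays, lost its call without that array (-0.83, adjusted p = 0.154), as did Phkg1, called higher. Pgm2 also lost its call without 14-day replicates 1, 2 or 3 or 112-day replicate 3 (adjusted p = 0.0536 to 0.141). Slc2a4, the insulin-responsive glucose transporter GLUT4, had 1508, 1902 and 1864 at 14 days and 5093, 4251 and 3972 at 112 days and a log2 change of 1.33 ± 0.23 (SE, adjusted p = 0.000652). Hk2, the hexokinase that traps glucose in muscle, had 1709, 2916 and 2660.4 at 14 days and 6851, 7511 and 6746 at 112 days and a change of 1.56 ± 0.22 (SE, adjusted p = 7.9e-05). In neither gene did the ages overlap.

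Several rising genes act in making or mobilising glycogen. Ugp2 makes UDP-glucose, the donor of glucose for glycogen, and was measured at 1539.7, 1831 and 1872 at 14 days and 4453, 4373 and 4558 at 112 days. Its older arrays lay close together and far above the younger ones, with a change of 1.35 ± 0.13 (SE, adjusted p = 9.7e-07). Gyg, glycogenin, primes each glycogen particle and had 972, 1025 and 994 at 14 days and 3045, 2021 and 1777 at 112 days, a change of 1.14 ± 0.19 (SE, adjusted p = 0.000565); its second probe set changed by 1.41 (adjusted p = 0.00453). Phka1, the muscle regulatory subunit of phosphorylase kinase, had 204, 306 and 210.4 at 14 days and 3571, 828 and 780.1 at 112 days. All 3 older arrays lay above the younger ones, replicate 1 far above, so that the change was 2.41 ± 0.46 (SE, adjusted p = 0.00159) with it and 1.70 ± 0.39 (adjusted p = 0.00995) without it. Phkg1, the catalytic subunit, changed by 1.15 (adjusted p = 0.00794), and its call was lost without replicate 1 (0.76, adjusted p = 0.0592).

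Adssl1, Slc6a8 and Lpin1 also rose. Adssl1, the muscle adenylosuccinate synthase of the purine nucleotide cycle, had 2468, 2763 and 2546 at 14 days and 11074, 7245 and 7548 at 112 days and a change of 1.70 ± 0.22 (SE, adjusted p = 2.8e-05). The creatine transporter Slc6a8 had 599, 728 and 529 at 14 days and 1217, 1329.5 and 1341 at 112 days and a change of 1.06 ± 0.18 (SE, adjusted p = 0.000628). Lpin1, a phosphatidate phosphatase that also acts as a transcriptional coactivator, had 1124, 1436 and 1406 at 14 days and 3625, 2709 and 3124 at 112 days and a change of 1.24 ± 0.17 (SE, adjusted p = 4.07e-05). In all 3 genes each older array lay above each younger one, and the calls held without replicate 1, with changes of 1.51, 1.10 and 1.14.

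Respiratory chain genes gave almost no calls. Of 58 tested genes of oxidative phosphorylation 1 was called higher and 0 lower (1.72%), and the median was -0.07, close to that of all probe sets. The one called was Sdha, the flavoprotein of succinate dehydrogenase, with 1404, 2005 and 1323 at 14 days and 2793, 3609 and 3739.8 at 112 days and a change of 1.10 ± 0.23 (SE, adjusted p = 0.00294). Of 43 genes of fatty acid oxidation or the citric acid cycle 3 were called higher and 2 lower, with a median of -0.01. Oxct1, which lets tissues burn ketone bodies, had 1328, 1454 and 1732 at 14 days and 3596, 4383 and 4376 at 112 days and a change of 1.45 ± 0.23 (SE, adjusted p = 0.00032). Idh3a, a subunit of isocitrate dehydrogenase, changed by 0.72 (adjusted p = 0.0299), and Idh3g by 0.57 (adjusted p = 0.0472), a call lost without replicate 1 (0.59, adjusted p = 0.092). Idh3a lost its call without 14-day replicates 1 or 2 or 112-day replicates 2 or 3 (adjusted p = 0.0839 to 0.107). Idh3g also lost its call without 14-day replicates 1 or 3 or 112-day replicates 2 or 3 (adjusted p = 0.0858 to 0.158).

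Cpt1a and Fabp3, the members of that list that fell, and Cidea of the fat list are given next. Cpt1a, the liver-type carnitine palmitoyltransferase at the mitochondrial gate for fatty acids, had 1125, 1263 and 1118 at 14 days and 301, 605 and 623 at 112 days and a change of -1.24 ± 0.26 (SE, adjusted p = 0.0034). Fabp3, the fatty acid binding protein of heart and muscle, had 7542, 8382 and 8603 at 14 days and 5687, 4661 and 4805 at 112 days, a change of -0.70 ± 0.22 (SE, adjusted p = 0.0469) that lost its call without replicate 1 (-0.78, adjusted p = 0.0605). Fabp3 also lost its call without 14-day replicates 1, 2 or 3 or 112-day replicates 2 or 3 (adjusted p = 0.0811 to 0.127). Cidea, a lipid droplet protein of brown fat, had 1062, 1099 and 1078 at 14 days and 176, 588 and 572 at 112 days and fell by a log2 change of -1.42 ± 0.31 (SE, adjusted p = 0.00426), or -0.88 ± 0.22 (adjusted p = 0.0177) without replicate 1. The ages did not overlap in any of the 3.

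Ryr1 and Cacna1s, channels that couple excitation to contraction, rose. Of 14 tested genes of calcium handling 3 were called higher and 2 lower, with a median of 0.09 (3, 0 and -0.12 without 112-day replicate 1). Ryr1, which releases calcium from the sarcoplasmic reticulum, had 5045, 5992 and 5935 at 14 days and 12716, 12229 and 8882 at 112 days and a log2 change of 0.98 ± 0.21 (SE, adjusted p = 0.00496). Cacna1s, the voltage sensor that opens it, had 2723, 2509.7 and 2199.9 at 14 days and 6066, 5014 and 4138 at 112 days and a change of 1.02 ± 0.21 (SE, adjusted p = 0.00374). Neither overlapped between ages, and both kept their call without replicate 1, at 0.88 and 0.88. Kcna7, a voltage-gated potassium channel of muscle, had 206, 243 and 214 at 14 days and 713, 499 and 516 at 112 days and a change of 1.30 ± 0.20 (SE, adjusted p = 0.000235). The chloride channel Clcn1, which damps the excitability of adult fibres, had 378, 1226 and 1342 at 14 days and 3027, 1980.2 and 2689 at 112 days. Its groups did not overlap, but its change of 1.54 ± 0.58 (SE, adjusted p = 0.0905) did not pass the test.

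Protein turnover and stress proteins rose in part. Of 43 tested genes of the proteasome and protein breakdown 5 were called higher and 0 lower, with a median of 0.26 (3, 0 and 0.17 without 112-day replicate 1). Ube2b, a ubiquitin-conjugating enzyme, had 1748, 2310.5 and 2748 at 14 days and 8329.6, 5470.3 and 4523 at 112 days and a change of 1.40 ± 0.20 (SE, adjusted p = 0.000112). Bnip3, which marks mitochondria for autophagy, had 563, 1115 and 891 at 14 days and 3054, 2375 and 2609.7 at 112 days and a change of 1.67 ± 0.23 (SE, adjusted p = 4.93e-05). The autophagy receptor Sqstm1 had 1820.1, 1710.0 and 2380.2 at 14 days and 5082, 3939.9 and 3238 at 112 days and a change of 1.04 ± 0.22 (SE, adjusted p = 0.00451). Older arrays were above younger ones throughout in these 3 genes. The 2 that lost their call without replicate 1 were Ube2d3 (0.57, adjusted p = 0.0929) and Capn3, a muscle calpain (0.48, adjusted p = 0.1). Ube2d3 also lost its call without 14-day replicate 1 (adjusted p = 0.0983). Capn3 also lost its call without 14-day replicate 1 (adjusted p = 0.0585).

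Chaperones moved both ways. Of 42 tested, 8 were called higher and 4 lower, with a median of 0.19 (7, 3 and 0.19 without 112-day replicate 1). Chaperones of the cytosol were among those that rose. Hsph1, a nucleotide exchange factor of Hsp70, had 872, 1036 and 919 at 14 days and 1726, 2012 and 2039 at 112 days and a change of 1.02 ± 0.15 (SE, adjusted p = 0.000168). Hspa1b, inducible Hsp70, had 398, 504 and 455 at 14 days and 728, 1134 and 973 at 112 days and a change of 1.02 ± 0.24 (SE, adjusted p = 0.00929). The small heat shock proteins Hspb8 and Cryab, which protect the sarcomere, changed by 0.96 (adjusted p = 0.00417) and 0.64 (adjusted p = 0.0138). Cryab lost its call without 14-day replicate 1 or 112-day replicate 3 (adjusted p = 0.0751 to 0.0772). The 4 that fell act in the endoplasmic reticulum, where collagen is folded, but Dnajb9, a cochaperone of the same compartment that was chosen after its values were seen, rose by 0.89 (adjusted p = 0.0491). Ppib, a cyclophilin that folds collagen, had 1687, 2019 and 1768 at 14 days and 516, 896 and 869 at 112 days and a change of -1.28 ± 0.24 (SE, adjusted p = 0.00143). Ppic, a related cyclophilin, changed by -1.41 (adjusted p = 0.000184), the collagen chaperone Serpinh1 by -1.33 (adjusted p = 0.00685), or -0.72 (adjusted p = 0.0153) without replicate 1, and the disulphide isomerase Pdia4 by -0.89 (adjusted p = 0.043), which lost its call without replicate 1 (-0.90, adjusted p = 0.0964). Pdia4 also lost its call without 14-day replicates 1, 2 or 3 or 112-day replicates 2 or 3 (adjusted p = 0.0608 to 0.12).

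Among the 20 largest rises were genes not yet described. Tspan8, a tetraspanin of epithelial membranes, had the largest change, with 17.7, 11.4 and 11.3 at 14 days and 1213, 258 and 362 at 112 days. It was near background on all 14-day arrays and bright on all 112-day arrays, with replicate 1 far above the rest. The log2 change was 4.1 ± 0.60 (SE, adjusted p = 0.000131), or 3.46 ± 0.62 (adjusted p = 0.00129) without that array, and both rest on young levels below the offset of 16 or close to it. Amy1, amylase, a secretory enzyme of salivary and lacrimal glands, had 67.4, 58.6 and 103 at 14 days and 468, 351 and 412 at 112 days and a change of 2.23 ± 0.32 (SE, adjusted p = 8.65e-05). Sar1b, a GTPase that buds vesicles from the endoplasmic reticulum, had 846, 905 and 965 at 14 days and 4939, 3282 and 2478 at 112 days and a change of 1.90 ± 0.34 (SE, adjusted p = 0.000857), and a second probe set rose by 1.35 (adjusted p = 0.00556).

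Some of the 20 were called on 1 probe set only, or were not called or changed less when 1 array was left out. The probe set of Sac3d1 that was called had 74.03, 112 and 93.8 at 14 days and 848, 764 and 1129.6 at 112 days, a change of 3.08 ± 0.47 (SE, adjusted p = 0.000207), while another was not called, at 0.14 (adjusted p = 0.881). Gadd45b had 142, 14.4 and 33.6 at 14 days and 302, 331 and 223 at 112 days and rose by 2.26 ± 0.58 (SE, adjusted p = 0.014), with 14-day arrays that spread widely (2.94 without 14-day replicate 1). Gadd45b lost its call without 14-day replicates 2 or 3 (adjusted p = 0.0562 to 0.0846). Abcb4, a phospholipid transporter, had 460.0, 335 and 286 at 14 days and 3045, 954 and 771 at 112 days and a change of 1.84 ± 0.36 (SE, adjusted p = 0.00228), or 1.24 ± 0.29 (adjusted p = 0.0119) without 112-day replicate 1, which lay far above the other older arrays. The phosphatase gene Ptp4a3 had 698, 709.8 and 818 at 14 days and 7742, 1880.1 and 1808 at 112 days, and its change of 1.99 ± 0.49 (SE, adjusted p = 0.0112) lost its call without replicate 1 (1.30, adjusted p = 0.0885). Atp8a1 was at 1.71 with all arrays and 1.11 (adjusted p = 0.251) without replicate 1. Kcnn1 went from 1.79 to 1.82 (adjusted p = 0.0864) and Nop16 from 1.96 to 1.96 (adjusted p = 0.0824), which ended both calls at nearly the same change. A second probe set of Nop16 was not called, at 0.26 (adjusted p = 0.331), and leaving out 14-day replicates 1 or 2 moved the first to 2.64 or 1.28. Atp8a1 also lost its call without 14-day replicates 1 or 3 (adjusted p = 0.0799 to 0.176). Kcnn1 also lost its call without 14-day replicates 1 or 2 or 112-day replicates 2 or 3 (adjusted p = 0.07 to 0.158). Nop16 also lost its call without 14-day replicates 2 or 3 or 112-day replicate 2 (adjusted p = 0.0732 to 0.177). Without 112-day replicate 1, Pla2g12a went from 1.73 to 1.81 (adjusted p = 0.000825) and Fam220a from 1.81 to 1.68 (adjusted p = 0.0274). Tlcd4 had 203, 156 and 218 at 14 days and 2214, 339.9 and 449 at 112 days, with replicate 1 far above the others, and its change of 1.80 ± 0.41 (SE, adjusted p = 0.00661) was 0.98 (adjusted p = 0.0159) without it.

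By number of genes called lower, the cytoskeleton of growing cells came second to the matrix list. Of 44 tested genes 18 were called lower and 4 higher, and the median was -0.35 (10, 2 and -0.34 without 112-day replicate 1). Tubb5, the beta tubulin of dividing and growing cells, had 2870.0, 2774 and 2362 at 14 days and 924, 1418 and 1412 at 112 days. No older array reached the lowest young one, and the log2 change was -1.10 ± 0.16 (SE, adjusted p = 0.000149). A second probe set of Tubb5 changed by -1.15 (adjusted p = 0.00929). Tubb2a, a tubulin of nerve and young muscle, had 1593, 1072 and 1212 at 14 days and 451, 676 and 677 at 112 days and a change of -1.09 ± 0.22 (SE, adjusted p = 0.00236). The names of this set and of the first Tubb5 set end in f, the mark for shared probes. Similar tubulins therefore cannot be told apart by them.

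Several actin regulators fell. Tmsb10, a thymosin that holds actin monomers, had 4278, 3333 and 4026 at 14 days and 795, 1536 and 1942 at 112 days and a change of -1.52 ± 0.25 (SE, adjusted p = 0.00035). Myh9, the heavy chain of non-muscle myosin, had 2059, 1849 and 1686 at 14 days and 659, 617 and 624 at 112 days and a change of -1.53 ± 0.21 (SE, adjusted p = 4.49e-05), with the 3 older arrays close together. Marcks, a membrane substrate of protein kinase C that binds actin, had 1808, 2024 and 1645 at 14 days and 422, 702 and 922 at 112 days and a change of -1.46 ± 0.28 (SE, adjusted p = 0.00165). Cfl1, cofilin, which severs actin filaments, had 3026, 2069 and 2039 at 14 days and 1073, 1473 and 1337 at 112 days and a change of -0.86 ± 0.16 (SE, adjusted p = 0.00138). Each of these kept its call without replicate 1, at -1.15, -1.56, -1.16 and -0.73. Among the 4 that rose, Map4, the microtubule protein of muscle, had 1282, 957 and 749 at 14 days and 1759.7, 1646 and 1903 at 112 days and a change of 0.85 ± 0.19 (SE, adjusted p = 0.00551).

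Some cell cycle genes fell. Of 83 with a probe set only 45 passed the filter on dim probe sets; 8 of these were called lower and 0 higher, with a median of -0.37 (7, 0 and -0.32 without 112-day replicate 1). A member that passed only because it was bright at 14 days had to differ, so these counts describe the tested members alone. Ccnd1, the cyclin that starts the cycle, had 813, 1269.8 and 892 at 14 days and 473, 487 and 568 at 112 days and a change of -0.92 ± 0.21 (SE, adjusted p = 0.00636). Ccnd3, the cyclin of differentiating muscle, had 1449, 1422 and 1329 at 14 days and 766, 722 and 818 at 112 days and a change of -0.85 ± 0.16 (SE, adjusted p = 0.00131). Cdk2, the kinase of DNA replication, had 426, 343 and 387 at 14 days and 177, 144 and 188 at 112 days and a change of -1.11 ± 0.25 (SE, adjusted p = 0.00564). Smc4, a condensin subunit that packs chromosomes, had 507, 587 and 430.0 at 14 days and 226, 194 and 281 at 112 days and a change of -1.07 ± 0.25 (SE, adjusted p = 0.00685). None of these 4 overlapped between ages, and their changes without replicate 1 were -0.87, -0.85, -1.15 and -1.06.

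Top2a and Mki67, usual markers of dividing cells, gave no call. Top2a, the topoisomerase of mitosis, was below the filter and untested, with 155, 124 and 157 at 14 days and 17.9, 33.5 and 23.99 at 112 days. The tested probe set of Mki67 had 599, 356 and 372 at 14 days and 283, 202 and 176 at 112 days and a change of -0.94 ± 0.41 (SE, adjusted p = 0.15), which did not pass the test. Its other probe set was below the filter, with 309.9, 276 and 119 at 14 days and 10.96, 3.50 and 6.13 at 112 days. Kif22, a mitotic kinesin, fell by a log2 change of -1.17 (adjusted p = 0.0203). Kif22 lost its call without 14-day replicates 1 or 2 or 112-day replicate 3 (adjusted p = 0.0577 to 0.0875).

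Several myelin and nerve genes fell. Of 25 with a probe set only 13 passed the filter on dim probe sets, which limits these counts as it does those of the cell cycle. Of the 13 tested 6 were called lower and 0 higher, with a median of -0.64 (3, 0 and -0.46 without 112-day replicate 1). Mbp, a protein that compacts the myelin sheath, had 1844, 2829 and 3444 at 14 days and 543, 1364 and 1059 at 112 days. Its ages did not overlap, replicate 1 was the lowest, and the log2 change was -1.49 ± 0.28 (SE, adjusted p = 0.00164), or -1.11 ± 0.26 (adjusted p = 0.0127) without that array. Pmp22, a protein of peripheral myelin that is also made by fibroblasts, had 5891, 5602 and 5068 at 14 days and 523, 2313 and 2795 at 112 days and a change of -1.86 ± 0.35 (SE, adjusted p = 0.00159), or -1.11 ± 0.16 (adjusted p = 0.000186). Fabp7, a fatty acid binding protein of immature Schwann cells, had 306, 251 and 896 at 14 days and 18.02, 36.6 and 96.8 at 112 days and a change of -2.87 ± 0.53 (SE, adjusted p = 0.00114). Erbb3, the neuregulin receptor of Schwann cells, changed by -0.95 (adjusted p = 0.0345), and its call was lost without replicate 1 (-0.46, adjusted p = 0.229), as were those of Egr2 and Mal (-0.51, adjusted p = 0.0799 and -0.41, adjusted p = 0.303). Erbb3 also lost its call without 14-day replicates 1, 2 or 3 (adjusted p = 0.0568 to 0.124). Egr2 also lost its call without 14-day replicate 2 (adjusted p = 0.0529). Mal also lost its call without 14-day replicates 1, 2 or 3 (adjusted p = 0.0689 to 0.154). The summed level of 25 markers was 15376 to 15858 at 14 days and 5619 to 9250.4 at 112 days, lowest on replicate 1.

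Part of the endothelial list fell. Of 29 tested 8 were called lower and 0 higher, with a median of -0.48 (4, 0 and -0.17 without 112-day replicate 1). Cldn5, the claudin of endothelial tight junctions, had 789.8, 1010.0 and 961 at 14 days and 217, 203 and 196 at 112 days. Its older arrays lay close together and far below the younger ones, with a log2 change of -2.08 ± 0.27 (SE, adjusted p = 2.8e-05). Cdh5, the cadherin that joins endothelial cells, had 2769, 2550.4 and 2818 at 14 days and 879, 1086 and 1379 at 112 days and a change of -1.29 ± 0.22 (SE, adjusted p = 0.000708). Emcn, an endothelial sialomucin, and Ramp2, a receptor partner needed in vessels, changed by -0.83 (adjusted p = 0.00543) and -1.17 (adjusted p = 0.00613), and by -0.59 and -0.82 without replicate 1. Sox18 and Tie1 lost their call without it, at -0.67 (adjusted p = 0.0563) and -0.55 (adjusted p = 0.131). Tie1 also lost its call without 14-day replicates 1 or 2 (adjusted p = 0.0617 to 0.0781). A second tested probe set of Emcn was not called, at -0.02 (adjusted p = 0.985). The summed level of 34 endothelial markers was 32779.9 to 35199 at 14 days and 17983 to 30559.9 at 112 days, again lowest on replicate 1.

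**Figure D3:**
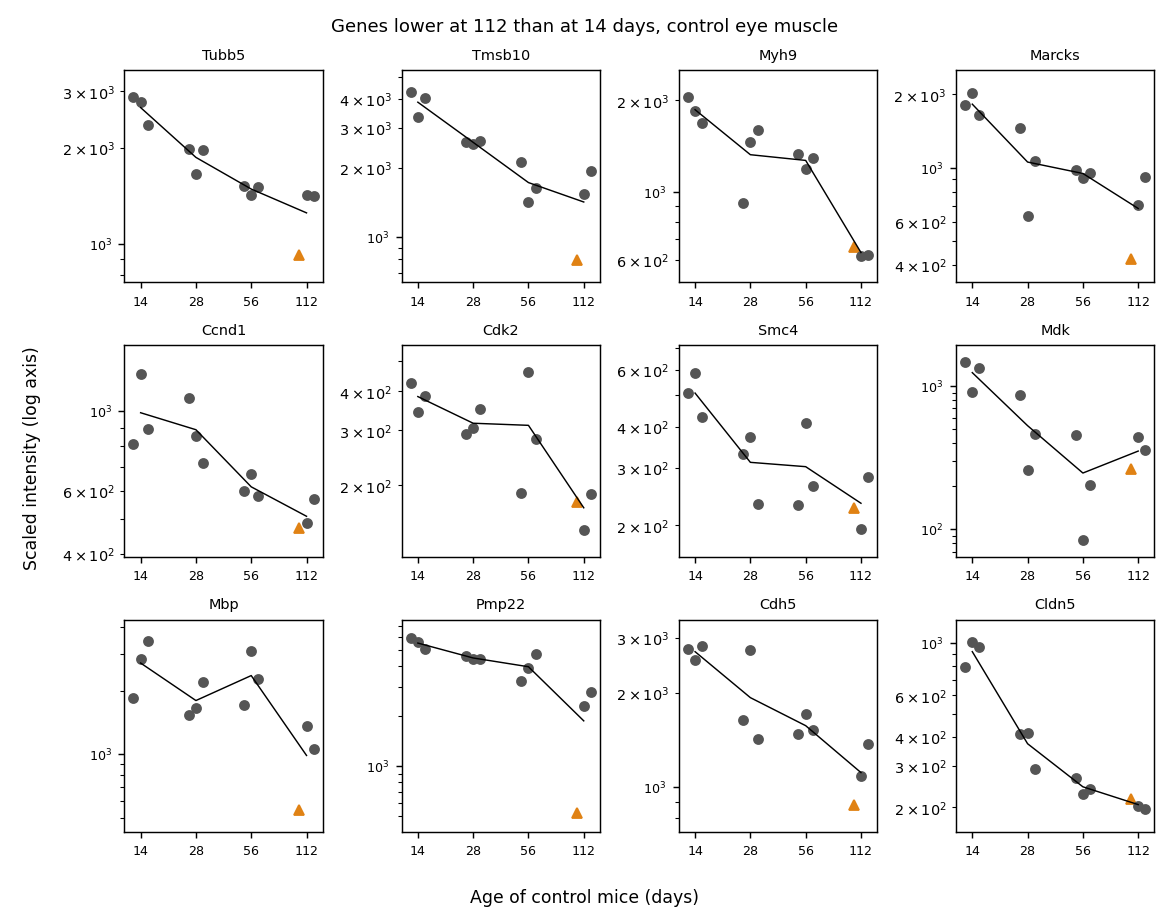
Scaled intensity of 12 falling genes of the cytoskeleton, cell cycle, nerve and endothelium on each control array at 14, 28, 56 and 112 days, on log axes that differ between panels. Points are arrays, the line joins the group means, and the orange triangle is 112-day replicate 1. No 112-day array reaches the lowest 14-day array in any panel; in Pmp22 replicate 1 lies far below the other older arrays.

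Some signalling genes of growth and patterning fell. Of 96 genes of the Wnt, Notch, BMP and hedgehog list with a probe set 60 passed the filter and were tested. Of these 10 were called lower and 0 higher, with a median of -0.47, but 3 and 0 without 112-day replicate 1 (median -0.41). Fstl1, a secreted glycoprotein that binds BMPs, had 1765, 1914 and 1445 at 14 days and 291, 713 and 680.3 at 112 days and a change of -1.67 ± 0.25 (SE, adjusted p = 0.000178), or -1.26 ± 0.20 (adjusted p = 0.000514) without it. Fzd4, a Wnt receptor of vessels, had 3979.5, 3383 and 4393 at 14 days and 1926, 1489 and 1878 at 112 days and a change of -1.15 ± 0.24 (SE, adjusted p = 0.00339). Frzb and Sfrp2, secreted Wnt inhibitors, changed by -1.57 (adjusted p = 0.0429) and -0.95 (adjusted p = 0.0187); both calls were lost without that array (-0.65, adjusted p = 0.278 and -0.66, adjusted p = 0.127). Frzb also lost its call without 14-day replicates 1, 2 or 3 (adjusted p = 0.0785 to 0.11). Sfrp2 also lost its call without 14-day replicates 1 or 2 (adjusted p = 0.055 to 0.0603).

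Of 43 axon guidance genes with a probe set only 21 passed the filter and were tested. These gave 4 calls lower and 0 higher, with a median of -0.54 (3, 0 and -0.36 without 112-day replicate 1). Mdk, midkine, a growth factor of developing nerve, had 1464, 914 and 1347 at 14 days and 262, 438 and 356 at 112 days and a change of -1.77 ± 0.42 (SE, adjusted p = 0.00832). Efnb2, an ephrin of arteries and growth cones, had 804, 872 and 803 at 14 days and 181, 412 and 447 at 112 days and a change of -1.31 ± 0.27 (SE, adjusted p = 0.00294). Nrp1, a receptor for semaphorins and VEGF, changed by -0.81 (adjusted p = 0.025), a call lost without replicate 1 (-0.46, adjusted p = 0.172). Nrp1 also lost its call without 14-day replicates 1 or 2 (adjusted p = 0.075 to 0.0841). Sox4, a transcription factor of progenitor cells, is outside the axon guidance list. Sox4 had 907, 1018 and 977 at 14 days and 336, 379 and 354 at 112 days and a change of -1.40 ± 0.37 (SE, adjusted p = 0.0157). Without replicate 1 that probe set was at -1.36 ± 0.42 (adjusted p = 0.0528), and without 14-day replicate 2 its adjusted p was 0.0505. A second probe set of Sox4 fell by a log2 change of -1.04 (adjusted p = 0.00544) and was called without replicate 1 too (-0.84, adjusted p = 0.0369).

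Single genes of iron uptake, lipid export and cell surface were lower as well. Tfrc, the transferrin receptor, had 5345, 7343 and 5389 at 14 days and 2100.5, 2339.7 and 2435 at 112 days. No older array came near the lowest young one, and the log2 change was -1.38 ± 0.24 (SE, adjusted p = 0.000628), or -1.31 ± 0.26 (adjusted p = 0.00349) without replicate 1. A second probe set fell by a log2 change of -2.61 (adjusted p = 0.0429), and was not called without that array (-2.86, adjusted p = 0.0692). Abca1, which loads cholesterol onto apolipoproteins, had 903, 1259 and 1388 at 14 days and 298, 463 and 576 at 112 days and a change of -1.40 ± 0.22 (SE, adjusted p = 0.00028). Thy1, a surface protein of fibroblasts, neurons and T cells, had 996, 659 and 906 at 14 days and 302, 162 and 388 at 112 days and a change of -1.59 ± 0.34 (SE, adjusted p = 0.00426).

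The 20 largest falls, with each gene ranked by its probe set of smallest p-value, held 7 genes that belong to neither the matrix nor the imprinted list. Clcn5, a chloride-proton exchanger of endosomes, had 316, 330.1 and 436 at 14 days and 11.9, 17.3 and 44.4 at 112 days. It was at or near background on all 3 older arrays, so the size of the fall depends on the offset of 16 and is uncertain. The log2 change was -3.29 ± 0.37 (SE, adjusted p = 4.98e-06), while a second probe set was not called, at -0.41 (adjusted p = 0.62). Kdelr3, a receptor that returns proteins to the endoplasmic reticulum, had 1359, 1308 and 1481 at 14 days and 243, 301 and 332 at 112 days and a change of -2.19 ± 0.21 (SE, adjusted p = 4.8e-07). Maged2, a protein of the MAGE family, had 1435, 1729.7 and 1443 at 14 days and 132, 306 and 310.4 at 112 days and a change of -2.63 ± 0.29 (SE, adjusted p = 3.35e-06). Rgs7, a regulator of G proteins, had 741, 641 and 544 at 14 days and 22.4, 253 and 251 at 112 days, with replicate 1 far below the other older arrays, and its change of -2.22 ± 0.44 (SE, adjusted p = 0.0025) was -1.28 ± 0.21 (adjusted p = 0.000501) without it. Traf4, an adaptor of receptor signalling, fell by a log2 change of -2.21 (adjusted p = 0.00647). Traf4 lost its call without 14-day replicate 1 (adjusted p = 0.053). The others were Fabp7, given with the nerve genes, and Atp2a1, given with the contractile genes.

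Matrix and imprinted genes made up the rest. Of 70 tested matrix genes 37 were called lower and 0 higher (52.9%), with a median of -1.0 (28 lower, 1 higher and -0.76 without 112-day replicate 1). Col3a1, a fibrillar collagen of young tissue, had 2622, 3052 and 3052 at 14 days and 98.3, 220.0 and 238 at 112 days and a log2 change of -3.94 ± 0.29 (SE, adjusted p = 1.83e-08). Postn, a matrix protein of growing connective tissue, had 6073, 7555 and 6203 at 14 days and 183, 1218 and 1306 at 112 days and a change of -3.26 ± 0.45 (SE, adjusted p = 5.52e-05), or -2.37 ± 0.25 (adjusted p = 5.43e-06) without that array. Of 26 imprinted and fetal growth genes 11 were called lower and 0 higher (42.3%), with a median of -0.82 (8, 0 and -0.61). Meg3, a maternally expressed non-coding RNA, had 3633, 4048 and 3859 at 14 days and 79.95, 122 and 111 at 112 days on the probe set that fell most, a change of -5.02 ± 0.45 (SE, adjusted p = 2.35e-07). Igf1, a growth factor outside the imprinted genes, did not pass the test on either probe set, at 0.25 (adjusted p = 0.622) and -0.62 (adjusted p = 0.124).

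Some genes of the developmental sarcomere fell. Of 18 tested developmental sarcomere genes 5 were called lower and 0 higher, with a median of -0.66, and 5 and 0 without 112-day replicate 1 (median -0.27). Myl4, the embryonic myosin light chain, had 1398, 1178 and 1569.6 at 14 days and 414, 393 and 506 at 112 days and a log2 change of -1.62 ± 0.23 (SE, adjusted p = 8.4e-05). A second probe set of Myl4 gave -0.47 ± 0.27 (SE, adjusted p = 0.289), which did not pass the test. Myh8, neonatal myosin, had 2394, 2365 and 2441 at 14 days and 132, 1521 and 1497 at 112 days. Replicate 1 lay far below the other older arrays, so the change of -1.79 ± 0.50 (SE, adjusted p = 0.0246) became -0.66 ± 0.15 (adjusted p = 0.0111) without it, and the gene was called both ways. Myh8 lost its call without 14-day replicates 1, 2 or 3 (adjusted p = 0.0616 to 0.0714).

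Embryonic myosin, Myh3, was not called. Its intensity was 4744, 5589.9 and 5058 at 14 days and 41.1, 4959 and 4927 at 112 days, so that 2 of 3 older arrays lay inside the 14-day range. The change was -2.20 ± 0.94 (SE, adjusted p = 0.141), and -0.05 ± 0.18 (adjusted p = 0.912) without replicate 1. Its means in between were 5883 ± 668 at 28 days and 4968 ± 614 at 56 days (SD, n = 3). The acetylcholine receptor subunit Chrna1 had 1438, 1625 and 1139.6 at 14 days and 191, 2025 and 1576 at 112 days and a change of -0.68 ± 0.48 (SE, adjusted p = 0.406), which turned to 0.36 ± 0.18 (adjusted p = 0.266) without that array, neither passing the test. Chrng, the fetal receptor subunit, was at -0.54 (adjusted p = 0.313) and -1.48 (adjusted p = 0.11) on its probe sets, and Chrne, the adult subunit, at -0.50 (adjusted p = 0.209), -1.23 (adjusted p = 0.207) and -1.11 (adjusted p = 0.275). Of 13 tested genes of the nerve-muscle junction 1 was called lower and 0 higher, and none was called without replicate 1. The changes of all 13 lay below 0, with a median of -0.54 (-0.36 without replicate 1).

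Adult fast sarcomere genes gave 2 calls higher and 1 lower of 19, and 0 without 112-day replicate 1. The fast myosin Myh1 had 12027, 19036 and 27197 at 14 days and 12877, 13239 and 8853 at 112 days, with overlapping ages, and its change of -0.68 ± 0.35 (SE, adjusted p = 0.224) did not pass the test. Myh4, the fastest of the limb myosins, had 8844, 12564 and 15569 at 14 days and 351, 11101 and 5698 at 112 days. Replicate 1 was far below the other 5 arrays, and the change was -2.07 ± 0.73 (SE, adjusted p = 0.0713), or -0.59 ± 0.41 (adjusted p = 0.462) without it. Its second probe set was at -0.28 (adjusted p = 0.572). Slow myosin, Myh7, was at 0.13 (adjusted p = 0.721) and -0.74 (adjusted p = 0.255) on its probe sets, and myoglobin, Mb, at 0.20 (adjusted p = 0.763), none of them called. Ldb3, a Z-disc protein, had 2887, 3902 and 3378 at 14 days and 12082, 6230.2 and 5402 at 112 days and a change of 1.14 ± 0.31 (SE, adjusted p = 0.0214), a call lost without replicate 1 (0.78, adjusted p = 0.144). Ldb3 also lost its call without 14-day replicates 1 or 3 (adjusted p = 0.0565 to 0.0875).

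**Figure D4:**
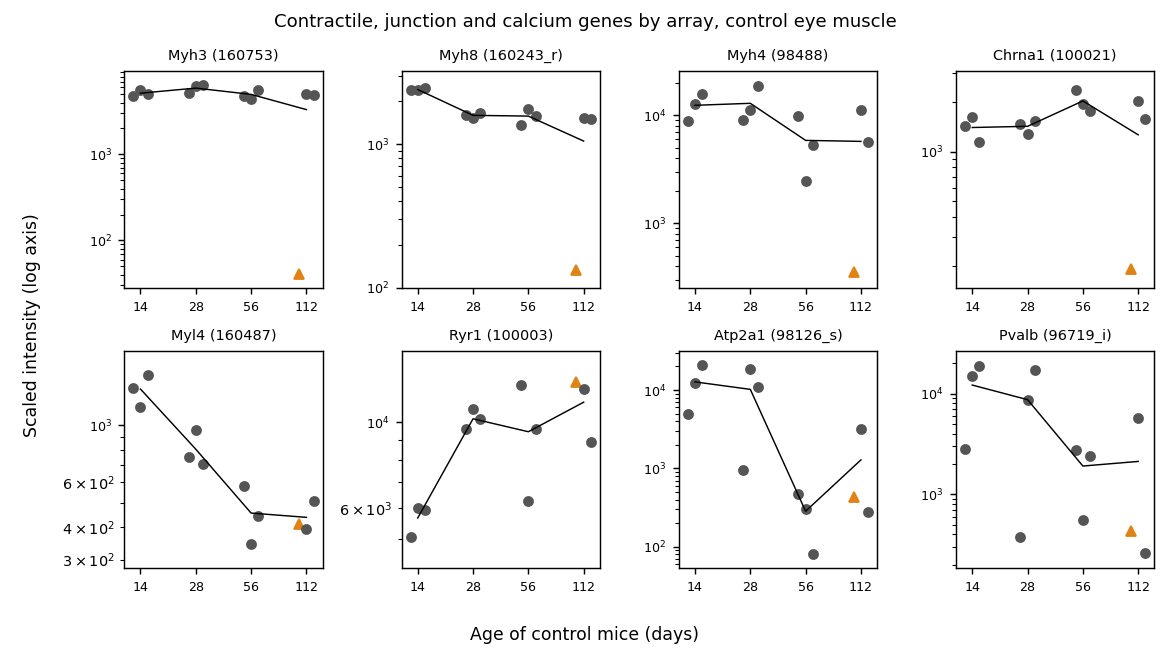
Scaled intensity of 8 contractile, junction and calcium genes (probe set names in brackets) on each control array at 14, 28, 56 and 112 days, on log axes. Points are arrays, the line joins the group means, and the orange triangle is 112-day replicate 1. That array is far below the others in Myh3, Myh8, Myh4 and Chrna1, and arrays of 1 age spread widely in Atp2a1 and Pvalb.

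Atp2a1, the calcium pump of fast fibres, fell on both probe sets. One had 5005, 12275 and 20884 at 14 days and 431, 3157 and 276 at 112 days and a change of -3.87 ± 1.12 (SE, adjusted p = 0.0287), not called without replicate 1 (-3.50, adjusted p = 0.11). The other had 2801, 8398 and 10277 at 14 days and 607, 383 and 822 at 112 days and changed by -3.40 ± 0.86 (SE, adjusted p = 0.0129), or -3.43 ± 0.98 (adjusted p = 0.0384) without it. The first set was at -4.91 without 112-day replicate 2 and -3.19 without 112-day replicate 3. It also lost its call without 14-day replicates 2 or 3 or 112-day replicate 3 (adjusted p = 0.0768 to 0.112). The second set lost its call without 14-day replicates 2 or 3 (adjusted p = 0.0501 to 0.0601). The probe sets of Pvalb, the calcium buffer of fast fibres, disagreed. One probe set had 4266, 4374 and 3579 at 14 days and 14622, 6269 and 6362 at 112 days and was called, at 1.04 ± 0.26 (SE, adjusted p = 0.0121), while the other had 2789, 14977 and 18677 at 14 days and 431, 5669 and 262 at 112 days and was not, at -3.37 ± 1.21 (SE, adjusted p = 0.0763). The former lost its call without replicate 1 (0.64, adjusted p = 0.0844). Pvalb also lost its call without 14-day replicate 3 (adjusted p = 0.0546).

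The manufacturer's control probe sets also differed between the ages. The ratio of Gapdh signal at the 3′ end to that at the 5′ end was 0.663, 0.702 and 0.809 at 14 days and 0.149, 0.479 and 0.105 at 112 days. The same ratio for beta-actin was 0.412, 1.33 and 1.055 at 14 days and 1.64, 1.73 and 0.857 at 112 days. The deposited intensity of the Gapdh 3′ set was 18928, 32640 and 56371 at 14 days and 1623, 18123 and 1949 at 112 days, so that replicate 2 was the highest older array there as in the first set of Atp2a1 and the uncalled set of Pvalb. The part of these differences in the values of Atp2a1 and Pvalb was not tested.

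Some regulators of the myogenic programme fell. Of 32 tested 8 were called lower and 1 higher, with a median of -0.31 (3, 1 and -0.25 without 112-day replicate 1). Myf5, which commits cells to muscle, had 626, 519 and 409 at 14 days and 82.8, 222 and 312 at 112 days and a change of -1.42 ± 0.35 (SE, adjusted p = 0.0119). Myog, which drives their differentiation, had 902, 1108 and 1254 at 14 days and 279, 614 and 519 at 112 days and a change of -1.24 ± 0.34 (SE, adjusted p = 0.0211). The ages did not overlap, but both calls were lost without replicate 1, the lowest array for both (-0.92, adjusted p = 0.0887 and -0.92, adjusted p = 0.132). Myf5 also lost its call without 14-day replicate 1 (adjusted p = 0.0614). Myog also lost its call without 14-day replicates 2 or 3 (adjusted p = 0.0592 to 0.079). Myod1 was not called, at -0.44 (adjusted p = 0.103). Cdkn1a, an inhibitor of the cell cycle, was called with and without the array on one probe set (-1.31, adjusted p = 0.0107 and -0.67, adjusted p = 0.0288) and not on the other (0.29, adjusted p = 0.39). Mstn, myostatin, which limits muscle growth, had 841, 942 and 949 at 14 days and 2760.0, 1101 and 1482 at 112 days and a change of 0.85 ± 0.26 (SE, adjusted p = 0.0355), lost without replicate 1 (0.48, adjusted p = 0.235). Mstn also lost its call without 14-day replicates 1, 2 or 3 (adjusted p = 0.0729 to 0.112). Dmd and Utrn, dystrophin and its relative utrophin, did not pass the test, at 0.15 (adjusted p = 0.795) for Dmd and -0.97 (adjusted p = 0.227) and -0.60 (adjusted p = 0.541) for the probe sets of Utrn.

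The remaining lists are given by their counts. Ribosome and translation genes gave 1 call higher and 1 lower of 31, and RNA processing genes 1 and 1 of 36. Genes of chromatin and growth-associated nuclear proteins, a list that also holds Sox4 and Sox11, gave 1 and 3 of 31. Complement and protease inhibitors gave 2 and 2 of 31, and ion channels and transporters 3 and 2 of 32. Dystrophin complex genes gave 1 higher and 3 lower of 25, lipid and cholesterol synthesis 3 and 1 of 32, and slow sarcomere 0 and 1 of 12. In the clock list 2 of 19 were called higher and 0 lower. They were Bhlhe40, a repressor of clock genes, with 353, 576 and 387 at 14 days and 936, 968 and 1084 at 112 days and a change of 1.18 ± 0.26 (SE, adjusted p = 0.00544), and Nampt, which makes NAD, with 618, 698 and 604 at 14 days and 1691, 1130.3 and 1298 at 112 days and a change of 1.06 ± 0.23 (SE, adjusted p = 0.0042). Immediate early genes gave 2 higher and 7 lower of 47, among them Fos at -1.14 (adjusted p = 0.0339), lost without replicate 1 (-0.80, adjusted p = 0.197), and Ier2 at -0.82 (adjusted p = 0.00553), which was kept (-0.64, adjusted p = 0.0371). Fos also lost its call without 14-day replicates 1, 2 or 3 (adjusted p = 0.0653 to 0.109).

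Markers of other tissues of the orbit were measured beside these results. For fat, 3 of 21 tested markers were called higher and 1 lower, or 3 and 2 without 112-day replicate 1, and the summed level of 26 was 22307 to 25728 at 14 days and 28103 to 37299.7 at 112 days. Adipoq, the hormone adiponectin of fat cells, had 498, 711 and 594 at 14 days and 1001, 1088 and 1342 at 112 days and a change of 0.91 ± 0.18 (SE, adjusted p = 0.00191). Slc2a4 and Me1 of the fat list were also called higher. Slc2a4 is counted in the glycolysis list too and was given above with glucose uptake. Me1, at 1.43 (adjusted p = 0.0101), lost its call without replicate 1 (0.88, adjusted p = 0.0733). Of 26 lacrimal and Harderian gland markers with a probe set only 10 were tested, and 3 of these were called higher and 0 lower. The sum over all 26 was 5885 to 6416 at 14 days and 7086 to 9499.9 at 112 days, with replicate 1 highest. Besides Amy1 these were Clu, clusterin, with 466, 521 and 438 at 14 days and 1025, 905 and 922 at 112 days and a change of 0.98 ± 0.16 (SE, adjusted p = 0.000378) (a second probe set was not called, at 1.02, adjusted p = 0.0845), and Egf at 0.75 (adjusted p = 0.0317), lost without replicate 1 (0.49, adjusted p = 0.199). Egf also lost its call without 14-day replicates 1 or 3 (adjusted p = 0.0717 to 0.128). The part of these tissues in the rise of Tspan8, Amy1 or the detoxifying enzymes was not tested.

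Retina, surface epithelium and blood markers gave few calls. The single retinal marker called was Cryab, a chaperone that muscle also makes. Of surface epithelium and melanocyte markers 1 of 19 was called lower, Dct of melanocytes, at -0.97 (adjusted p = 0.0392). Dct lost its call without 14-day replicates 1, 2 or 3 or 112-day replicates 1 or 3 (adjusted p = 0.0625 to 0.164). Erythroid markers gave 1 call higher and 3 lower of 16, among them Alas2, the first enzyme of haem synthesis in red cells, at -1.26 (adjusted p = 0.0332), and Car2 at -0.84 (adjusted p = 0.0195). Alas2 lost its call without 14-day replicates 1, 2 or 3 or 112-day replicate 1 (adjusted p = 0.0724 to 0.224). Car2 lost its call without 14-day replicates 2 or 3 or 112-day replicates 1 or 2 (adjusted p = 0.0647 to 0.0888). Tfrc, given above with iron uptake, is also in this list. Bpgm rose by 0.98 (adjusted p = 0.0213). It lost its call without 14-day replicates 1 or 3 or 112-day replicate 1 (adjusted p = 0.0717 to 0.15). Mast cell and granulocyte markers gave 1 lower of 9.

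In mdx muscle the same span gave 295 calls (3.96%). Among the mdx arrays, 14-day replicate 3 had the lowest quality weight, 0.233, and the lowest mean correlation with the other arrays, 0.921. The mdx calls were not counted without it, so mdx changes and calls carry that limit. Of the 813 probe sets called in control muscle 795 (97.8%) had a change of the same sign in mdx muscle, as had 69.4% of all tested probe sets, and 219 were called in both, which is 26.9% of the control calls and 74.2% of the mdx calls. The 2 changes share no arrays. The difference between them was tested itself, and 0 of 7453 probe sets (0%) passed limma's test; 284 had an unadjusted p under 0.05, the count of calls was 0 in each of 24 alternatives, and no other tool was run. H2-Aa changed by 3.04 (adjusted p = 0.00198) in mdx muscle, Cyp2e1 by 2.11 (adjusted p = 9.32e-06), Mgst1 by 2.05 (adjusted p = 6.03e-07) and Ugp2 by 1.07 (adjusted p = 3.19e-05).

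Some genes called in control muscle were not called in mdx muscle, and 4 are given here, chosen after their values were seen. Myl4 was at -0.53 (adjusted p = 0.263) there, Myog at 0.05 (adjusted p = 0.973) and Tfrc at -0.58 (adjusted p = 0.212). Their differences between genotypes were -1.10 ± 0.32 (SE, adjusted p = 0.969), -1.29 ± 0.48 (SE, adjusted p = 0.969) and -0.79 ± 0.33 (SE, adjusted p = 0.969), and none passed the test. For Ces1d the mdx change was 1.18 (adjusted p = 0.363) and the difference 2.19 ± 0.84 (SE, adjusted p = 0.969). Its mdx levels at 14 days were 123, 65.7 and 392, with replicate 3, the mdx array of lowest weight, far above the others.

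**Figure D5:**
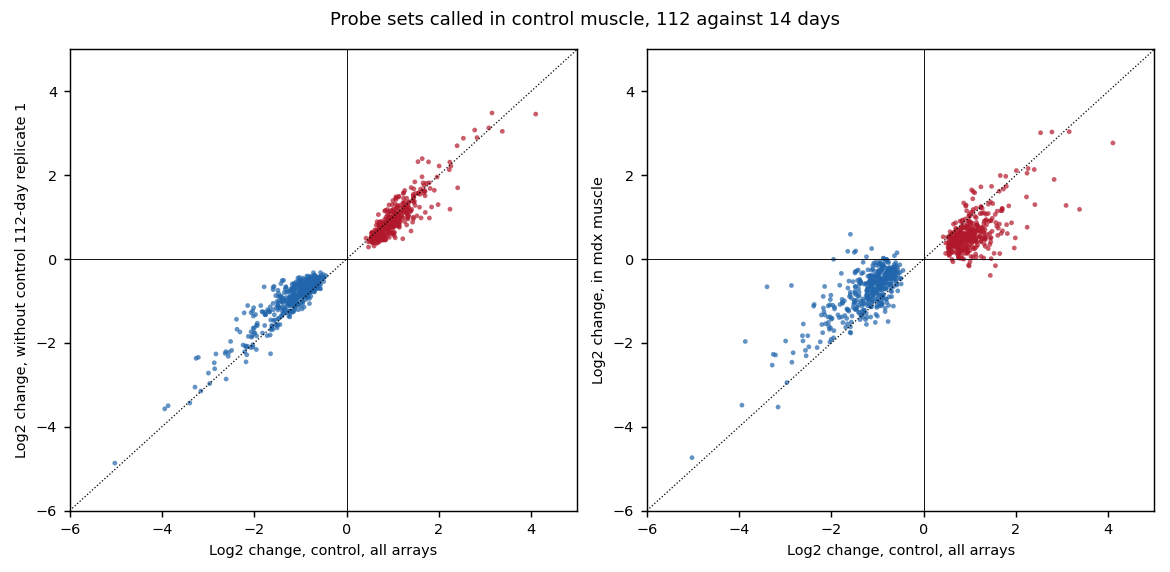
Log2 change from 14 to 112 days of the 813 probe sets called in control muscle (x axes), against the change without control 112-day replicate 1 (left) and the change in mdx muscle (right). Red points rose and blue points fell in control muscle, and the dotted line marks equal change. Most points lie in the same quadrant on both panels, 795 of 813 in mdx muscle.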

How the data were processed

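RNA of extraocular muscle was measured on 24 Affymetrix arrays, 3 in each of 8 groups, grouped by the sample titles. The deposited values are intensities per probe set on a linear scale; which software, scaling and filters the authors used to make them is not stated by any label, header or note used here. Each array was floored at 1 (44 values), scaled to a trimmed mean of 500 (2% left out at each end) and turned to log2 after adding 16. The manufacturer's 66 control probe sets were left out, and the filter on dim probe sets kept those whose mean log2 value reached the 40th percentile, 125.7 as an intensity, which left 7453 of 12422 for testing. Group means of all 24 arrays were fitted with limma 3.58.1 in R 4.3.3 (lmFit, eBayes with trend, 16 residual degrees of freedom), and p-values are two-sided, adjusted by Benjamini-Hochberg over all tested probe sets and called under 0.05. Errors are the fit's standard errors of the log2 change, and intensities in the text are on the scaled linear scale. The model was tested on simulated data.

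GEO's platform annotation, which can be old, gave 1 symbol to 10833 probe sets, several to 396 and none to 1193; 10817 of the first matched RefSeq (GRCm38.p6), and 0 symbols changed. The family mark f is also on called probe sets of Tubb5, Tubb2a, Ces1d, Sar1b, Gyg, Pvalb, Atp2a1, Gadd45b, Sac3d1, Cryab and Tie1. These may measure related genes too. The members and gene lists were chosen with earlier results of these data known, and some lists were used in earlier work on these arrays. The named genes are the 20 largest rises and 20 largest falls among called probe sets with 1 symbol and no overlap between ages. Each gene was ranked there only through its probe set with the smallest p-value. A larger change on another probe set of the gene did not count. Also named are up to 6 called members of each list in each direction, and a fixed set of muscle genes whatever their result. Of that set Myh13, Scn4a and Pax7 had no probe set with their symbol here, Myh2 was below the filter, and 1 item is not reported here. Any other gene is named as chosen after its values were seen. The alternatives tried were the offset, the filter, quantile normalization, array weights, a covariate, the replicate block, fewer arrays in the fit, a fold threshold and leaving out each array. No scan dates or batches are given in the labels, and no batch could be tested.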

Additional observations from a re-analysis of the deposited data

How the results depend on the processing

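The rule for naming genes covers 177 called probe sets, more than the text describes. None of them changed direction in any of the 20 alternatives that tested it (155 were tested with the filter at the 60th percentile, 176 with an offset of 1 or with quantile normalization and no 112-day replicate 1, and 177 in the rest). Of the 177, 76 lost their call in no alternative that tested them but the test against a fold of 1.5. The 813 calls (387 higher, 426 lower) became 1226 with array weights (630 higher), 380 in a fit of the 12 control arrays alone (190 and 190), 292 in a fit of the 6 arrays alone (146 and 146), 504 with quantile normalization and no 112-day replicate 1 (213 lower; this setting was chosen after seeing the data) and 75 when tested against a fold of 1.5 (26 and 49). Leaving out each array in turn gave 465 to 833 calls, 218 to 351 higher and 221 to 498 lower. Of the 177, calls were lost by 55 without 112-day replicate 1, by 18 and 20 without 112-day replicates 2 and 3, and by 47, 41 and 43 without 14-day replicates 1, 2 and 3. The only named changes to turn sign were not called. Chrna1 (main value -0.68) was at 0.19 with array weights, 0.31 with quantile normalization and no 112-day replicate 1, and 0.36 without the pair of arrays that stood apart (that one and control 56-day replicate 2), and between -1.29 and 0.36 when each array was left out. Dmd was between -0.036 and 0.402 and Mb between -0.060 and 0.459 when each array was left out. The cause was not tested. With the replicate block 811 probe sets were called. Deviations of same-numbered arrays of both ages correlated at 0.044, 0.068 and -0.043, and the arrays numbered 3 did not correlate best with each other, so the numbers were not taken as pairs. The median of all changes was -0.05, 0.02 with quantile normalization and -0.13 with no filter, so changes are relative to a level that moves by about that much. Probe sets below the filter were not tested, and 3 arrays per group limit the precision of the rest.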
